A study of Mus musculus with 40 samples.

Results

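The Nfkb2 locus was 18 CpGs at the inner transcription start of mouse Nfkb2, out of 300 CpGs measured by bisulfite amplicon sequencing in liver DNA. They were taken by position, as the CpGs of the deposited table between 46379984 and 46380194 on chromosome 19, and are numbered here Nfkb2_1 to Nfkb2_18 along the plus strand, the strand of the gene. The animals were male mice of 9 weeks, of strain C57BL/6 in the labels and C57BL/6J in the study's methods. Their dams ate a low-fat (LF) or a high-fat (HF) diet from before mating until weaning, and the sons were then fed LF or HF, the main fat of both diets being coconut oil. Group names give the dam's diet and then the offspring's: LL (LF dam, LF after weaning), HL (HF dam, LF after weaning), LH (LF dam, HF after weaning) and HH (HF at both times). Each group had 10 animals in the labels. All 18 CpGs were read in each of 39 animals (10 LL, 9 HL, 10 LH and 10 HH), which gave 702 values; HL replicate 1 was not analysed here. The sons of a cage were divided between the LF and HF diets, so littermates can stand in different groups, and the DNA came from whole liver, so each value is an average over its cell types.

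Nfkb2 encodes p100, a protein that holds the NF-κB subunit RelB in the cytoplasm until it is processed to the DNA-binding subunit p52. This route is called the non-canonical NF-κB pathway, and it is best known for the development of lymphoid organs and for B-cell survival. NF-κB dimers bind short DNA elements called κB sites, and NFKB2 is itself a known target gene of NF-κB. Methylation of CpGs at a promoter is generally associated with silencing, and promoters of expressed genes in CpG-rich sequence are usually unmethylated.

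The Nfkb2 gene (ENSMUSG00000025225.7) spans 46379227 to 46386580 on chromosome 19 in build NCBIM37, and GENCODE gives 3 transcripts with different starts. The amplicon covered 46379959 to 46380221 (263 bp), of which 211 bp lay between the primers. In the transcript with the outermost start it lies inside intron 1, between exon 1, which ends at 46379310, and exon 2, which starts at 46380420. A second transcript starts within the amplicon, at 46380185, so that the amplicon runs from 226 bp upstream of this inner start to 36 bp downstream of it. Thus 17 CpGs were intronic and upstream of the inner start, and Nfkb2_18, 9 bp downstream, lay in the 5′ UTR of the shorter transcript. The amplicon had a GC content of 67.7% and a ratio of observed to expected CpGs of 0.605, and no CpG between the primers was missed.

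The bisulfite primers are shown because they set the ends of what was read, and the κB window because its first G is the G of Nfkb2_18. The primer sequences are those of the converted strands, so the T of the forward primer and the A of the reverse primer stand for converted cytosines as well as for original bases.
Forward primer, 46379959 to 46379983: tataaaagtttttgggtgaattagt
Reverse primer, 46380195 to 46380221: aaaattaatactacttaaaaaaatccc
Start of the shorter transcript, chr19:46380185-46380214, plus strand, κB site in capitals: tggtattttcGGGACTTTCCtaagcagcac
The κB site GGGACTTTCC lies 10 bp downstream of the inner start and falls in the site of the reverse primer, so Nfkb2_18, directly before it, was the nearest base measured. Searched on both strands, these 10 letters occurred in 51 of 32851 promoters of 300 bp in the RefSeq table (0.155%), and in 2 of the 3 promoters it lists for Nfkb2. The broader κB consensus, which the same site matches, occurred in 2779 of them (8.46%) and in 3 of the 3 for Nfkb2. One of the promoters with the 10 letters, at 46305445 to 46305744 in build GRCm38.p6, was identical to NCBIM37 46379935 to 46380234, a stretch that holds the whole amplicon. The other, NCBIM37 46380170 to 46380469, overlaps it. Both hold the same site, which is thus counted in each of them, for the 10 letters and for the consensus alike. The GC box letters GGGCGG, present in 35.7% of these promoters, occurred in the amplicon on the minus strand at Nfkb2_9 and Nfkb2_15. CCAAT, present in 37.4%, was not in the amplicon. These matches describe the letters only.

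The CpGs with the highest and lowest levels, and Nfkb2_7, which had the smallest p-value of any CpG here, are shown with 21 bp around them, from NCBIM37, plus strand, the CpG in capitals.
Nfkb2_4, highest, 46380040: ggagagggggCGaggcggcta
Nfkb2_1, next highest, 46379984: gtgaatcagcCGtgtcctcca
Nfkb2_17, rank 3 from the highest, 46380175: cctccggctcCGcctccccct
Nfkb2_8, lowest, 46380101: aaccaggaacCGcctgggcct
Nfkb2_11, next lowest, 46380128: cctcccgctgCGggggcgtgg
Nfkb2_6, rank 3 from the lowest, 46380056: ggctaggcccCGactgagccc
Nfkb2_7, 46380087: agaggctgccCGggaaccagg

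Depth is given here as the number of reads over a CpG. It ranged from 542 to 14302 reads at the Nfkb2 CpGs, and the median over the CpGs of an animal ranged from 550 in LH replicate 8 to 7144 in HL replicate 9. The 95% Wilson interval of a single value, 100 times methylated over all reads, had a median width of 0.636 percentage points (0.056 to 2.36). Amplified reads without molecular identifiers are not independent molecules, so such intervals cover counting error only. The 2 CpGs in the middle of the amplicon stood apart in their counts. Nfkb2_7 and Nfkb2_8 had 2.00 times the median reads of the locus, while the other 16 CpGs had 0.983 to 1 times. Of the 78 values at this pair, 78 methylated counts and 77 total counts were even, against 317 and 331 of 624 at the other 16 CpGs. Their depth and intervals are given as the table holds them, and the locus mean without this pair was 0.797% over all animals, against 0.772% with it.

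**Figure D1:**
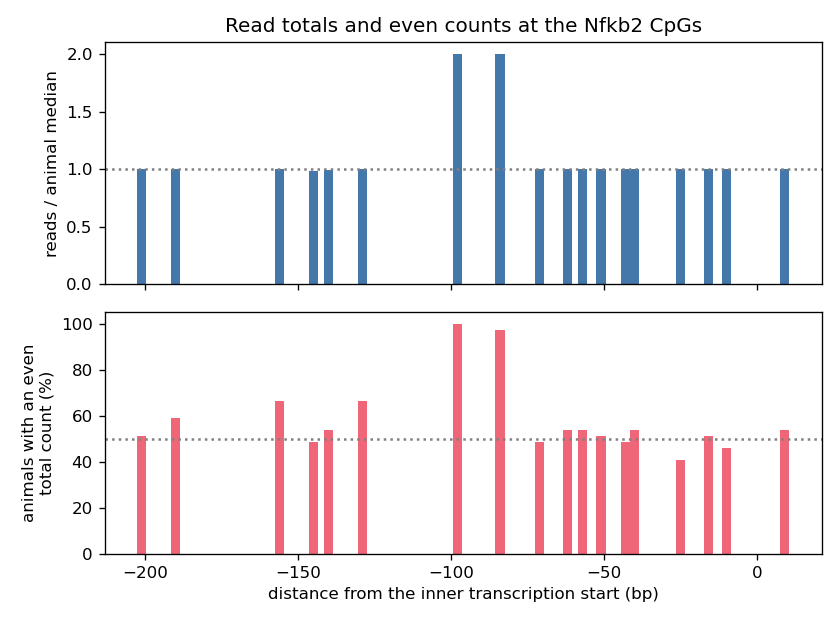
Read totals at the 18 Nfkb2 CpGs by distance from the inner transcription start in bp. The upper bars give the median over 39 animals of the reads at a CpG divided by the median reads of that animal, and the lower bars the share of animals with an even total count (%). Nfkb2_7 and Nfkb2_8, at 98 and 84 bp upstream, reach 2.00 and stand near 100%, and the other CpGs stay near 1 and near the dotted line at 50%.

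The Nfkb2 locus was almost free of methylation in liver. The locus mean, the mean over the 18 CpGs, was 0.772% ± 0.106 (SD) over 39 animals, with a range of 0.581 to 0.991%. Of the 702 single values, 16 (2.28%) were over 2% and the highest was 2.74%, at Nfkb2_10 in HL replicate 3. Another 4 values were 0. They were Nfkb2_8 in LH replicate 5 (0 of 3094 reads, which allows up to 0.097%) and in LH replicate 9 (0 of 6858, up to 0.0437%), Nfkb2_14 in LH replicate 8 (0 of 551, up to 0.544%) and Nfkb2_18 in HH replicate 8 (0 of 876, up to 0.342%). These limits are 3 divided by the reads. In the same order, the upper ends of the 95% Wilson intervals were 0.124, 0.056, 0.692 and 0.437%. Both kinds of limit at Nfkb2_8 use its doubled read totals. Cytosines that bisulfite failed to convert are read as methylated. At levels of this size true methylation and failed conversion cannot be told apart, since cytosines outside CpGs were not analysed here.

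The level was not the same at all 18 CpGs. The mean over animals ran from 0.523% to 1.52%, and 2 CpGs were over 1%. Nfkb2_4, 145 bp upstream of the inner start, had the highest level, 1.52% ± 0.397, with 0.780% in the lowest animal, 1.51% at the median and 2.43% in the highest. Next came Nfkb2_1, at the forward primer, with 1.07% ± 0.430 (0.475, 0.961 and 2.32%), and Nfkb2_17 with 0.938% ± 0.500 (0.205, 0.857 and 2.26%). The lowest levels were those of Nfkb2_8 with 0.523% ± 0.450 (0, 0.364 and 1.47%), Nfkb2_11 with 0.535% ± 0.376 (0.104, 0.399 and 1.43%) and Nfkb2_6 with 0.578% ± 0.373 (0.0678, 0.518 and 1.56%). The other 12 CpGs lay between 0.619% and 0.852%.

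Nfkb2_4 exceeded Nfkb2_8 in 39 of 39 animals, by 0.994 points ± 0.452. The order of mean levels was set by these same values, so a test between neighbours in it cannot decide the order. It is given as a description. Nfkb2_4 was above Nfkb2_1, the next in that order, by 0.444 points ± 0.552, in 30 of 39 animals. Nfkb2_1 was above Nfkb2_17 by 0.135 points ± 0.644, in 23 of 39. Nfkb2_4 also had the fewest reads of the 18, at 0.983 times the locus median, and whether its level is related to this was not tested. The 5′ UTR CpG Nfkb2_18, beside the κB site, had a level of 0.702% ± 0.413, against 0.776% ± 0.105 for the mean of the 17 intronic CpGs. The difference of −0.0745 points ± 0.407 was within the spread between animals. A sign-flip permutation test over animals with 100000 resamples gave p = 0.259, and Nfkb2_18 was higher in 14 of 39.

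**Figure D2:**
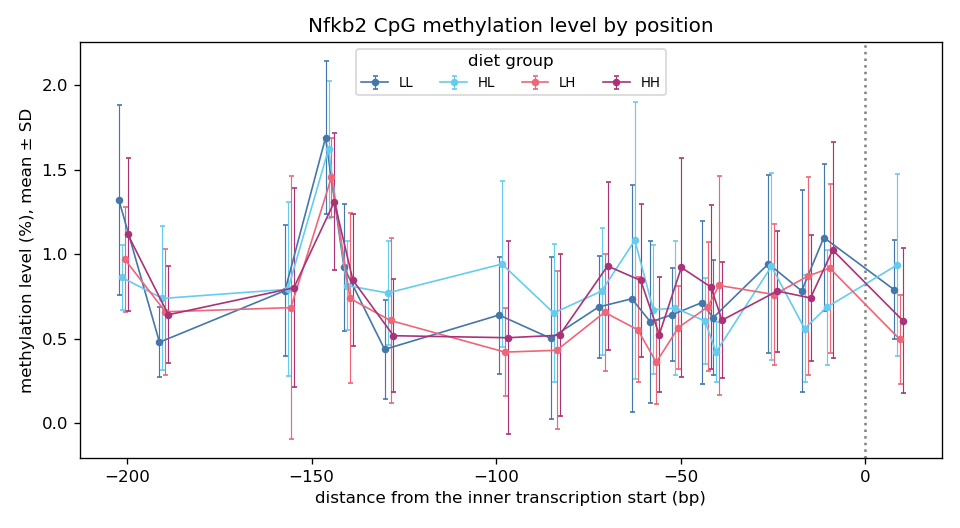
Methylation level (%) of each Nfkb2 CpG against its distance in bp from the inner transcription start (dotted line), as the mean of each diet group with bars of 1 SD between animals. All 4 groups peak at Nfkb2_4, 145 bp upstream, and otherwise have group means between 0.360 and 1.32% with overlapping bars.

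An animal that was high at one Nfkb2 CpG was not generally high at the next. After the group means were removed, Pearson's r between CpGs over the 39 animals had a median of −0.00399, and 75 of 153 pairs were above 0. The highest r was 0.458, between Nfkb2_6 and Nfkb2_11, and the lowest −0.488, between Nfkb2_4 and Nfkb2_15. Neighbouring CpGs had a median r of −0.0527. The Nfkb1 amplicon, also near 1%, gave a median r of 0.0253, while the CpGs of the imprinted genes Plagl1 and Peg3 gave 0.885 and 0.966 and those of Lep, the leptin gene, 0.549. All CpGs of an amplicon share their library, PCR and reads, and these coefficients are descriptions. Differences between CpGs took 21.2% of the sum of squares of the 702 values, differences between animals 4.54%, of which 0.723% lay between the diet groups, and 74.2% remained. The variance between animals at a single CpG was 2.14 to 16 times the binomial variance (median 5.27), the highest ratio being that of Nfkb2_8, whose read totals were doubled.

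**Figure D3:**
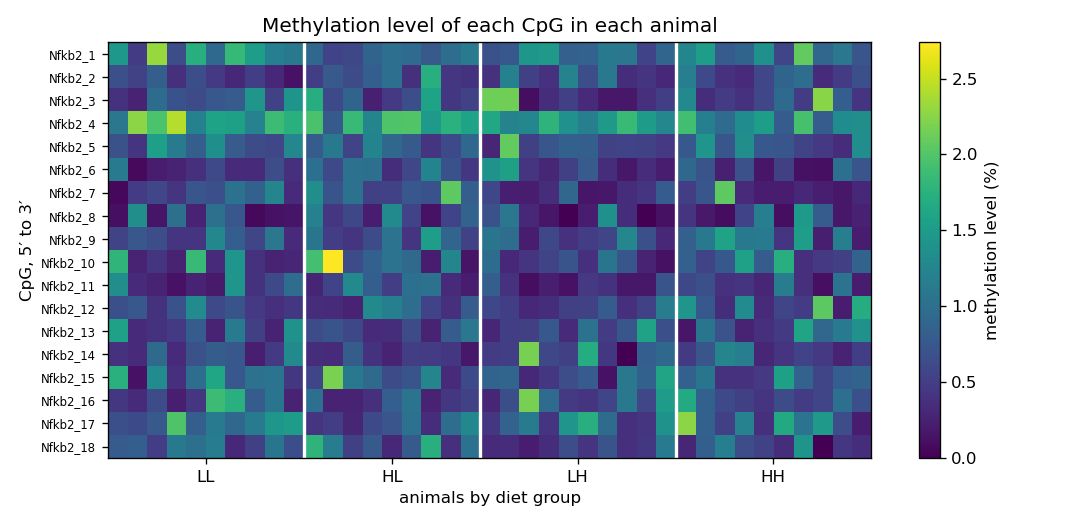
Methylation level (%, colour) of each Nfkb2 CpG (rows, 5′ to 3′) in each of 39 animals (columns, by diet group, white lines between groups). The row of Nfkb2_4 is brighter across the groups, single bright squares are scattered over CpGs and animals up to 2.74%, and no column is bright throughout.

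The study's question at these loci was whether the diet of the dam alters DNA methylation in the liver of sons kept on the same diet after weaning. HL vs LL and HH vs LH address it, and the other pairs follow from the groups. The 4 groups gave 6 pairwise comparisons of the Nfkb2 locus mean. Each group stands in 3 of them, so they are not independent. At the locus LH had the lowest levels, from 0.581% through a median of 0.689% to 0.902%, with a mean of 0.703% ± 0.0979 (10 animals). LL ran from 0.585% through 0.808% to 0.964% (mean 0.800% ± 0.111, 10 animals), HL from 0.731% through 0.803% to 0.991% (0.808% ± 0.0836, 9 animals) and HH from 0.632% through 0.754% to 0.978% (0.781% ± 0.108, 10 animals). All 4 ranges overlapped.

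**Figure D4:**
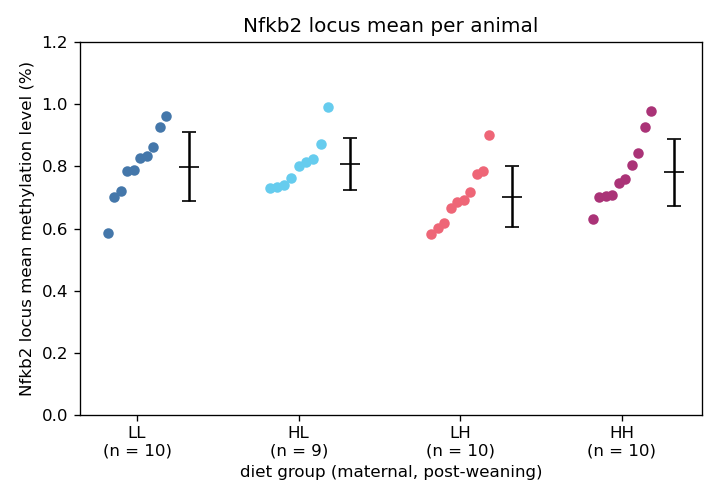
Nfkb2 locus mean (%) of each animal (points) in the 4 diet groups, with the mean and SD of the group in black. The ranges overlap between 0.731 and 0.902%, and the LH mean, 0.703%, is the lowest of the 4.

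HL and LH, which met the HF diet at opposite times of life, had the largest difference when all 18 CpGs were used. The HL mean was 0.105 points above the LH mean (95% interval 0.0164 to 0.193, by inverting the exact permutation test), and 9 of 9 HL animals lay above the LH median. The exact permutation p was 0.0229 and the adjusted p over the 19 tested loci 0.109, so the difference did not pass the threshold of 0.05. At an unadjusted p under 0.05, 21.1% of the tested loci differed in this comparison. Without Nfkb2_7 and Nfkb2_8 the difference was 0.0720 points (exact permutation p = 0.116), smaller than those of LH minus LL (−0.0908 points) and HH minus LH (0.0768 points) over the same 16 CpGs. Without LH replicate 2, the highest LH animal, it was 0.127 points with an adjusted exact permutation p of 0.0445.

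LL and LH, which shared an LF dam and differed in the diet after weaning, came next. LH was lower, LH minus LL being −0.0969 points (interval −0.195 to 0.00219), with 9 of 10 LH animals below the LL median. Student's test gave p = 0.0533 and an adjusted p of 0.405, and the exact rank-sum test p = 0.0288 and an adjusted p of 0.274. HH was above LH by 0.0780 points (−0.0193 to 0.175), with 9 of 10 HH animals above the LH median. There Student's test gave p = 0.109 (adjusted p = 0.690) and the exact rank-sum test p = 0.0892 (adjusted p = 0.856). The remaining 3 comparisons had smaller differences. HL minus LL was 0.00837 points (−0.0867 to 0.105, exact permutation p = 0.858, adjusted 0.906), HH minus HL −0.0273 points (−0.121 to 0.0676, exact permutation p = 0.548, adjusted 0.708) and HH minus LL −0.0189 points (−0.122 to 0.0848, p = 0.704, adjusted 0.892). Without Nfkb2_7 and Nfkb2_8, HL minus LL was −0.0188 points and HH minus HL 0.00478 points, both of the opposite sign. From the highest group mean to the lowest the order was HL, LL, HH and LH, and no neighbours in it differed beyond their spread. The intervals reach no further than 0.195 points from 0 in any of the 6 comparisons.

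**Figure D5:**
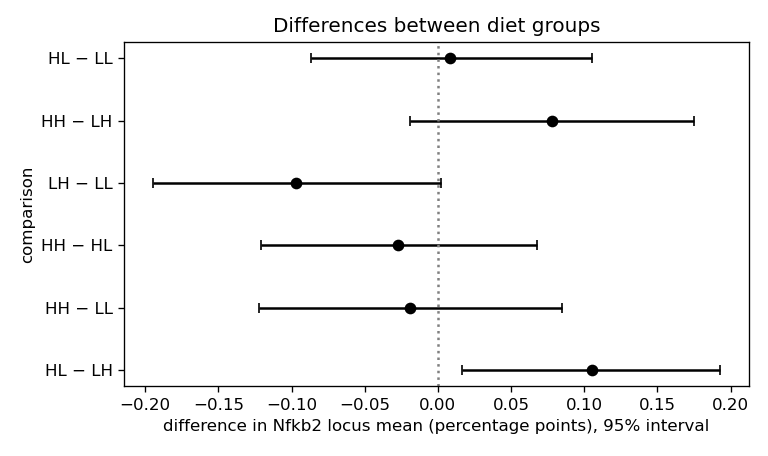
Difference in Nfkb2 locus mean (percentage points) for the 6 pairs of diet groups, points for the difference and bars for the 95% interval. The interval of HL minus LH, 0.0164 to 0.193, is the 1 that does not reach 0, and LH minus LL ends at 0.00219.

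In linear models over the 39 animals the diet after weaning had the larger estimate. Animals fed HF after weaning had a locus mean of 0.742% ± 0.108 (20 animals) and those fed LF 0.804% ± 0.0965 (19 animals), an estimate of −0.0630 points (F test, p = 0.0605, adjusted p = 0.366). Sons of HF dams had 0.794% ± 0.0957 (19 animals) and sons of LF dams 0.751% ± 0.113 (20 animals), an estimate of 0.0441 points (p = 0.184, adjusted p = 0.581). The interaction of the diets was 0.0696 points (p = 0.291, adjusted p = 0.634). Without Nfkb2_7 and Nfkb2_8 the estimate for the diet after weaning was −0.0443 points (p = 0.232).

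Of the 18 CpGs, 0 passed the adjusted threshold in any of the 6 comparisons, by the test used here as by limma and the quasi-binomial model. Over the 253 tested CpGs 0.395% passed in HL vs LH and 0% in the other 5. At an unadjusted p under 0.05 the count was 3 of 18 in HL vs LL (background over all tested CpGs, 14.6%), 1 in LH vs LL (7.91%), 2 in HL vs LH (13.0%), and 0 in HH vs LH (2.77%), HH vs HL (12.6%) and HH vs LL (7.91%). The shares at Nfkb2 were thus near or below the background. In HL vs LH, 13 of 18 CpGs had a higher mean in HL, and the median difference was 0.120 points, against 36.4% of all tested CpGs and a median of −0.115. In LH vs LL, 14 of 18 were lower in LH, with a median difference of −0.141 points, against 50.6% and a median of −0.0103 over all tested CpGs.

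Nfkb2_7 had the smallest p-value in HL vs LH. It ran from 0.518% through a median of 0.741% to 2.06% in HL and from 0.165% through 0.363% to 0.906% in LH. All 9 HL animals were above the LH median, and the ranges overlapped. HL averaged 0.942% ± 0.491 and LH 0.420% ± 0.262, or 0.522 points less (exact permutation p = 0.00433, adjusted 0.190). This CpG is one of the pair with doubled read totals. The largest difference in that comparison was at Nfkb2_10, 0.530 points (1.08% ± 0.822 in HL and 0.552% ± 0.310 in LH, exact permutation p = 0.0718, adjusted 0.392), where HL replicate 3 alone held 2.74%.

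Nfkb2_18, the CpG before the κB site, had the smallest p-value in LH vs LL. It ran from 0.208% through 0.390% to 1.12% in LH and from 0.306% through 0.800% to 1.14% in LL, and 9 of 10 LH animals were below the LL median. The means were 0.496% ± 0.265 and 0.791% ± 0.292, a difference of −0.295 points (p = 0.0294, adjusted p = 0.572). HL had 0.936% ± 0.540 and HH 0.607% ± 0.430 at this CpG, so that HH minus HL was −0.329 points (exact permutation p = 0.160, adjusted 0.630) and HL minus LH 0.440 points (exact permutation p = 0.0352, adjusted 0.329). Over both maternal diets, Nfkb2_18 also had the smallest p-value for the diet after weaning, with an estimate of −0.311 points (p = 0.0168, adjusted p = 0.386). Nfkb2_7 (−0.325 points, p = 0.0240) and Nfkb2_4 (−0.271 points, p = 0.0312) were the other CpGs under 0.05 for that term, both with an adjusted p of 0.413. Thus 3 of 18 CpGs were under 0.05 unadjusted, against 10.7% of all tested CpGs, and 0 of 18 passed the adjusted threshold, against 1.19%.

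In HL vs LL the 3 CpGs did not move one way. Nfkb2_6 was higher in HL, with 0.362, 0.685 and 1.24% as the lowest, median and highest values against 0.0678, 0.354 and 1.12% in LL. HL minus LL was 0.334 points (exact permutation p = 0.0291, adjusted 0.263). Nfkb2_1 had the largest difference, −0.458 points, with 0.863% ± 0.193 in HL and 1.32% ± 0.564 in LL (exact permutation p = 0.0305, adjusted 0.267). Nfkb2_17 was lower in HL, with means of 0.686% and 1.10%, so that HL minus LL was −0.413 points (exact permutation p = 0.0328, adjusted 0.277). Nfkb2_1 had the largest difference in LH vs LL too, −0.350 points (p = 0.102, adjusted p = 0.714). It also had the smallest p-value for the interaction, with an estimate of 0.606 points (p = 0.0271, adjusted p = 0.660), where 1 of 18 CpGs was under 0.05 against 6.72% of all tested CpGs. For maternal diet over both diets after weaning, 0 of 18 were under 0.05 against 11.9%, and the smallest p-value was that of Nfkb2_10 (0.319 points, p = 0.0962, adjusted p = 0.543).

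The other comparisons had smaller differences against their spread. In HH vs LH the smallest p-value was at Nfkb2_10 (0.292 points, p = 0.109, adjusted p = 0.859) and the largest difference at Nfkb2_12 (0.356 points, p = 0.122, adjusted p = 0.859). In HH vs HL both were at Nfkb2_7 (−0.437 points, exact permutation p = 0.101, adjusted 0.545), where HH replicate 3 held 2.06%, like the highest HL animal. In HH vs LL both were at Nfkb2_4, which had 1.31% ± 0.405 in HH and 1.69% ± 0.452 in LL (−0.379 points, p = 0.0636, adjusted p = 0.679).

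Animals are numbered in the labels, and a run was taken as numbers that follow each other by steps of at most 3. The labels do not call these runs cages. They held both diets after weaning in 5 cases. Within 2 such runs LH minus LL was −0.183 and −0.125 points, and within 3 runs HH minus HL was −0.0125, 0.0145 and −0.0993 points. With runs as a block, LH minus LL was −0.154 points over 10 animals (exact permutation p = 0.0200, the smallest this design can give, which 3 of the 19 loci reached, adjusted 0.127). HH minus HL was −0.0214 points over 12 animals (exact permutation p = 0.762, adjusted 0.850). Over both maternal diets HF minus LF after weaning was −0.0832 points in 22 animals of 5 runs (exact permutation p = 0.0435, adjusted 0.413).

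No difference in locus depth between the groups passed 0.05 (exact permutation p from 0.200 to 0.993), although HL had a mean of 3235 reads and LH 2197. Across the 39 animals no relation of the locus mean with depth, or with the level of the other loci of low methylation, passed 0.05. With the log10 median reads Pearson's r was 0.147 (permutation p = 0.372) and Spearman's rho 0.148 (permutation p = 0.368), and r was 0.0566 without the 2 animals farthest in depth. With the median level of the 9 other loci under 2%, r was 0.148 (permutation p = 0.370) and rho 0.145 (permutation p = 0.378), and r was 0.0794 without the 2 animals farthest on that measure. For these 2 relations the adjusted permutation p was 0.372 for r and 0.378 for rho. Within LL, HL, LH and HH, r was 0.261, −0.557, 0.221 and 0.180 with depth and 0.325, −0.149, 0.121 and 0.635 with the other loci.

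Among the 19 tested loci, Nfkb2 had rank 5 from the lowest mean level. The 3 loci nearest to it were Pck2, Srebf1 and Nfkb1. Pck2, which encodes a mitochondrial enzyme of gluconeogenesis, had 0.754% ± 0.150 and Nfkb2 was higher in 18 of 39 animals. Srebf1, a regulator of lipid synthesis, had 0.736% ± 0.0732 and Nfkb2 was higher in 24 of 39. Nfkb1 had 0.812% ± 0.0870 and Nfkb2 was higher in 12 of 38. These loci were picked for their nearness in level, so the values are a description. The loci whose deviations from the group means had the highest r with those of Nfkb2 were Nr1h2, Lep and Ebp. Their r was 0.398, 0.350 and 0.342 over 39 animals that share their libraries. Lepr had an r of −0.353, larger in size than that of Ebp. Ebp had a level of 1.3% ± 3.21 with 20.8% in its highest animal, so its r can rest on few animals. These loci were picked for their r, which was not tested.

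Of the NF-κB family, which comprises Nfkb1, Nfkb2, Rel, Rela and Relb, the tested table held Nfkb1 and Nfkb2. Nfkb1 encodes p105, the precursor of the subunit p50. Its amplicon held 19 CpGs (chromosome 3, 135353848 to 135353962, 549 to 663 bp into the gene), with a locus mean of 0.789% ± 0.110 in LL, 0.844% ± 0.0665 in HL, 0.781% ± 0.0927 in LH and 0.836% ± 0.0646 in HH. At Nfkb1, HL minus LH was 0.0625 points (exact permutation p = 0.119, adjusted 0.357) and LH minus LL −0.00733 points (exact permutation p = 0.878, adjusted 0.927), beside 0.105 and −0.0969 points at Nfkb2. Of its 19 CpGs, 0 passed the adjusted threshold in any comparison, where 0.395% of all tested CpGs passed in HL vs LH and 0% in the others. An unadjusted p under 0.05 was found at 2 of 19 in HL vs LL (14.6% of all tested CpGs), 1 in HH vs LH (2.77%) and 3 in LH vs LL (7.91%). The count was 1 in HH vs HL (12.6%), 1 in HH vs LL (7.91%) and 3 in HL vs LH (13%).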

How the data were processed

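Per the labels and the study's methods, liver DNA was bisulfite converted, amplified with locus-specific primers, barcoded per animal and sequenced on 1 lane, and methylation was called with Bismark on build mm9. The Bismark version is not given in the sources used here. The authors deposited counts of methylated and total reads for every CpG and animal, and a methylated fraction, used here only as a check. Recomputed from the counts, it came out the same to within 5e-16 (11071 values). All 300 positions lay in a CpG of NCBIM37, the assembly behind mm9, used here with GENCODE M1. No pair of libraries was a duplicate (closest pair 0.808 points apart per CpG). Reads summed over CpGs ranged from 1530126 to 15531697 per animal, and every total above 0 was at least 100.

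Tested were the 253 CpGs, at 19 loci, that had 10 or more reads in 36 or more animals. Student's t-test was used between groups of 10 animals and a 2-sided exact permutation test (double the smaller tail) otherwise, with F tests for the diet terms. P-values were adjusted by Benjamini-Hochberg within a comparison over all CpGs or loci, at 0.05. The labels do not say whether animals of a group came from separate litters, so p-values measure the spread between these animals. Tests of Nfkb2 against the loci picked as nearest in level are not printed, since the choice fixed a small difference. Tests between neighbours in the order of CpG levels are not printed either, since the same values set that order. Named CpGs were the 3 highest and 3 lowest and, per comparison, those with the smallest p-value and the largest difference. The CpGs, lists and comparisons were chosen with earlier results of these data known. Nfkb2_7 and Nfkb2_8 were set aside as an alternative added after seeing the data, as were the blocked post-weaning term and the alternatives of the unadjusted counts. The tests were tried on simulated data, and their power at differences of the size seen here is not given. The software was scipy 1.17.1, numpy 2.4.6 and pandas 2.3.3 under Python 3.11.15, matplotlib 3.10.9 for plots, and limma 3.58.1 under R 4.3.3, run on log2((methylated + 1)/(unmethylated + 1)). RefSeq promoters were matched by gene symbol, 3 for Nfkb2.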

Additional observations from a re-analysis of the deposited data

Results flagged for a closer look

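Of 80 sets of values (the locus mean, the median reads and 18 CpGs in 4 groups), 7 held an animal far from the rest of its group by Dixon's ratio, and chance flags about 4. All 7 were the highest value of 1 CpG in its group. They were Nfkb2_2 in HL replicate 8 (1.724%, the next animal at 0.997%), Nfkb2_3 in HH replicate 8 (2.247%, next 1.296%), Nfkb2_5 in LH replicate 2 (2.085%, next 0.851%), Nfkb2_7 in HH replicate 3 (2.057%, next 0.729%), Nfkb2_12 in LL replicate 5 (1.316%, next 0.746%), Nfkb2_15 in HL replicate 3 (2.191%, next 1.242%) and Nfkb2_16 in HH replicate 1 (1.676%, next 0.996%). The reads behind them ranged from 890 to 6612. No locus mean and no depth stood apart in this way.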

How the results depend on the processing

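Of 585 results under an alternative, unadjusted counts of CpGs not included, 578 were unchanged. Most of the 585 left out a single animal. For a difference, unchanged means the same direction and the same side of the threshold. For a count of CpGs at the adjusted threshold it means that the count stayed 0. For the locus level it means a value within the SD between animals of the main one. HL vs LL and HH vs HL reversed without Nfkb2_7 and Nfkb2_8 (to −0.0188 and 0.00478 points). Leaving out 1 animal moved HL vs LL between −0.0154 (without LL replicate 2) and 0.0266 points, and it was also below 0 without HL replicate 2 (−0.0145), LL replicate 4 (−0.00054) and LL replicate 8 (−0.00251). HL vs LH ranged from 0.0824 to 0.127 points and passed the adjusted threshold once, without LH replicate 2 (0.127 points, adjusted exact permutation p = 0.0445); over all its alternatives the adjusted p ran from 0.0445 to 0.357. HH vs HL ranged from −0.0493 (without HH replicate 1) to −0.00445 (without HL replicate 2) and HH vs LL from −0.0427 (without LL replicate 2) to −0.000675 (without LL replicate 7). LH vs LL ranged from −0.121 (without LL replicate 2) to −0.0786 points (without LL replicate 7), with exact permutation p from 0.0131 to 0.103. HH vs LH ranged from 0.0560 (without HH replicate 1) to 0.100 points (without LH replicate 2), with exact permutation p from 0.0293 to 0.210. Over all alternatives the adjusted p was at least 0.127 for LH vs LL and 0.399 for HH vs LH. With reads pooled over the locus, where the doubled CpGs weigh double, HL vs LL was 0.0302 and HH vs HL −0.0528 points. With at least 1000 reads, LH replicate 3, LH replicate 8 and HH replicate 8 kept only Nfkb2_7 and Nfkb2_8, the CpGs with doubled totals. Their locus means are then not over the same CpGs as those of the other animals, so the differences at this minimum compare unlike sets of CpGs. HL vs LH was then 0.173 points, LH vs LL −0.165 (p = 0.0323, adjusted p = 0.258), HH vs LH 0.127, HH vs HL −0.0469 and HH vs LL −0.0385. The post-weaning estimate was −0.108 (p = 0.0227, adjusted p = 0.147), the maternal 0.0691 and the interaction 0.118. The blocked tests changed no call. No paired analysis was possible because replicate numbers only follow accession order, and 4 comparisons had fewer than 2 runs with both groups. Counts of CpGs at the adjusted threshold stayed 0 under every alternative run. Counts at an unadjusted p under 0.05 moved by over 1.5 times in 27 of 171 cases. HL vs LL fell from 3 to 1 without HL replicate 2, 3, 4 or 8 and HL vs LH from 2 to 1 without LH replicate 3 or 4. LH vs LL, at 1, was 0 without LH replicate 3 or LL replicate 5, 6 or 9 or with at least 1000 reads, and 2 without LL replicate 1 or 2 or LH replicate 2. HH vs HL and HH vs LL rose from 0 to 1 when some single animals were left out, HH vs HL also by the rank-sum test and limma. Under the quasi-binomial model HH vs LH, HH vs HL and HH vs LL had 2. The shares of all tested CpGs under these alternatives were not computed, so such counts cannot be set against a background. Depth limits single values to a median interval of 0.636 points.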
